A study of Mus musculus with 12 samples.

Results

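The cornified envelope is the protein shell that a keratinocyte assembles beneath its membrane as it dies to form the outer skin, and the genes for its structural proteins lie side by side in the epidermal differentiation complex. They were followed here in medullary thymic epithelial cells (mTECs) of mice. Members were all genes whose symbol begins with Lce or Sprr followed by a number, together with Flg, Flg2, Hrnr, Rptn, Ivl, Lor and Tchh, provided that a probe set listed that gene alone. The rule found 37 genes among the 22154 genes measured: 18 late cornified envelope (Lce) genes, 12 small proline-rich (Sprr) genes and 7 genes without close copies of this kind. The Lce genes comprised 11 of the Lce1 group, 6 of the Lce3 group and Lce6a. The Sprr genes comprised 8 of the Sprr2 group, 2 of which (Sprr2g and Sprr2j-ps) RefSeq lists as transcribed pseudogenes, and Sprr1a, Sprr1b, Sprr3 and Sprr4. Lce1m was the single member with more than 1 probe set, and its brighter one by mean signal was used. Membership rests on symbols and no measured value, although the rule was written with earlier results of these data known. The choice between probe sets does use measured values, the mean over all 12 arrays, which include the groups compared below.

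Each of 12 Affymetrix mouse gene arrays held RNA of sorted C57BL/6 mTECs from thymi of mice aged 4 weeks. The sort took live cells that lacked CD45, carried Epcam and bound UEA, with low Ly51, and divided them by surface MHC class II into a high fraction (mTEChi) and a low fraction (mTEClo). The groups were Aire-/- mTEChi, Aire+/+ mTEChi, Brg1-/- mTEChi and Brg1+/+ mTEChi with 2 arrays each, and Aire-/- mTEClo, Aire+/+ mTEClo, Brg1-/- mTEClo and Brg1+/+ mTEClo with 1 array each. Aire is the transcriptional regulator through which mTECs express many tissue-restricted genes, and Brg1, encoded by Smarca4, is an ATPase of SWI/SNF chromatin remodelling complexes; the study asked how both bear on such expression. The labels name no promoter or deleter strain behind either knockout, do not say how many thymi made up a sample, and are silent on whether replicates are different animals. The p-values below therefore reflect the scatter among these samples alone, and that scatter may be technical.

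In skin, involucrin (Ivl) forms an early scaffold of the envelope, loricrin (Lor) later becomes its most abundant protein, Sprr proteins act as cross-bridges, and Lce proteins are added late, all joined by transglutaminases. Filaggrin (Flg), its relatives Flg2, Hrnr and Rptn, and trichohyalin (Tchh) belong to the fused S100-type proteins. Of these, filaggrin aggregates keratin filaments, while trichohyalin is known from the inner root sheath of the hair follicle. In the thymic medulla some mTECs take on keratinocyte features late in their life, which include Hassall's corpuscles in human thymus. These genes are thus known as tissue-restricted genes of skin and also as markers of such late epithelial cells.

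On the log2 scale, array medians ran from 5.07 to 5.32. Epcam read 8.41 to 9.29 and Krt14, a basal keratin of mTECs, 10.57 to 12.10 over the arrays, whereas Psmb11, which defines cortical thymic epithelium, read 5.80 to 6.79. The mean over 9 of 10 mTEC markers was 9.0 to 9.67 in mTEChi and 8.08 to 8.19 in mTEClo. The list holds the MHC class II gene H2-Aa, so this mean is not independent of the sort. Krt14 went the other way, at 10.57 to 11.68 in mTEChi, against 11.87 to 12.10 in mTEClo. Epcam read 8.41 to 9.23 in mTEChi, against 9.15 to 9.29 in mTEClo. The mean over 8 of 10 thymocyte markers was 5.31 to 6.71 in mTEChi, with the highest value on Brg1-/- mTEChi replicate 2, and 4.92 to 5.21 in mTEClo. Signal of the probe set for Aire was 9.01 and 9.73 in Aire-/- mTEChi, against 8.04 and 8.80 in Aire+/+ mTEChi. Smarca4 had 5.88 and 5.44 in Brg1-/- mTEChi, against 6.13 and 6.89 in Brg1+/+ mTEChi. Where these probe sets lie with respect to the deleted sequence was not known, so neither checks the genotype labels.

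All 37 members lie on chromosome 3 in RefSeq, in the order Lor, the Sprr genes, Ivl, Lce6a, 10 Lce1 genes, the 6 Lce3 genes, Lce1m, and then Flg2, Flg, Hrnr, Rptn and Tchh. The 100 bases before the annotated start are printed for 12 members (RefSeq, GRCm38.p6), 5′ to 3′ on the gene's strand: the Lce3 genes, Lce1m and Sprr2k because members that passed a test are among them, and Lce1e, Sprr2e, Ivl and Lor to show the other groups. Capitals mark matches on the gene's strand to TATAAA, to its 1-letter variants AATAAA and GATAAA, and to TGANTCA, the letters of an AP-1 site.
Lce3a (chr3:92926231-92926330, minus strand): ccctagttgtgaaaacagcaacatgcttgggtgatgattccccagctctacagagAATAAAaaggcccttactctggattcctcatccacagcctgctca
Lce3b (chr3:92932879-92932978, plus strand): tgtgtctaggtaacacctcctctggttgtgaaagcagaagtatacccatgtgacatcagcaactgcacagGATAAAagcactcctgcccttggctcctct
Lce3c (chr3:92944386-92944485, plus strand): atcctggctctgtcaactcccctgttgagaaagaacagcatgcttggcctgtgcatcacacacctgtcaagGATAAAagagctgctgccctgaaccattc
Lce3d (chr3:92957290-92957389, plus strand): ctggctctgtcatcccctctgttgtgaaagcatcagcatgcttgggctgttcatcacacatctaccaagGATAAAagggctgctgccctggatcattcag
Lce3e (chr3:92966961-92967060, plus strand): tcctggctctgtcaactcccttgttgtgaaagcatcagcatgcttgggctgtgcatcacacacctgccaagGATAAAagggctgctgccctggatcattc
Lce3f (chr3:92992117-92992216, plus strand): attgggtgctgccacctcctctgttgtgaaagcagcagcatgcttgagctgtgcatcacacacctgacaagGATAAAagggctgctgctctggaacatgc
Lce1e (chr3:92709075-92709174, minus strand): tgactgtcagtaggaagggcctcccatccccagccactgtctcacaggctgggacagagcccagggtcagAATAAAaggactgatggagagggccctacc
Lce1m (chr3:93019062-93019161, minus strand): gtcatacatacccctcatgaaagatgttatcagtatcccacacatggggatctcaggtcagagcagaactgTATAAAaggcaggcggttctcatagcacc
Sprr2k (chr3:92432482-92432581, plus strand): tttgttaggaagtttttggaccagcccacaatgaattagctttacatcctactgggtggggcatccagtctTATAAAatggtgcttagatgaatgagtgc
Sprr2e (chr3:92352043-92352142, plus strand): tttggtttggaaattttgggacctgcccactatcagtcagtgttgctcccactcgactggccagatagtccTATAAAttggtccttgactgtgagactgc
Ivl (chr3:92573736-92573835, minus strand): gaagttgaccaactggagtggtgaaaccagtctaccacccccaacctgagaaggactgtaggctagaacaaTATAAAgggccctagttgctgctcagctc
Lor (chr3:92083143-92083242, minus strand): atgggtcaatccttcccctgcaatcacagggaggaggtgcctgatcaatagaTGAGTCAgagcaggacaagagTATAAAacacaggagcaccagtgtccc
These motifs were chosen after the sequences had been seen. Among 34 members with such a window (there was none for Lce1f, Sprr2g and Sprr2j-ps), GATAAA occurred on the gene's strand in 5 of 6 Lce3 genes, with its first letter at -31 to -29 from the start, and in Lce6a. Lce3a alone of the Lce3 genes held AATAAA instead, at -45. AATAAA was also found in 7 of 10 Lce1 genes, at -32 to -30, and TATAAA in Lce1m, at -29. TATAAA was found in 15 of 34 members in all, the others being 9 of 10 Sprr genes and Ivl, Lor, Flg, Hrnr and Rptn. TGANTCA was found in Lor, Flg2 and Rptn. Of all 32851 promoter windows of this length, 3.80% held TATAAA, 3.79% AATAAA, 1.68% GATAAA and 2.73% TGANTCA on the gene's strand, and 5.56%, 6.75%, 3.07% and 2.73% on either strand. A match is a description of the letters only.

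**Figure D1:**
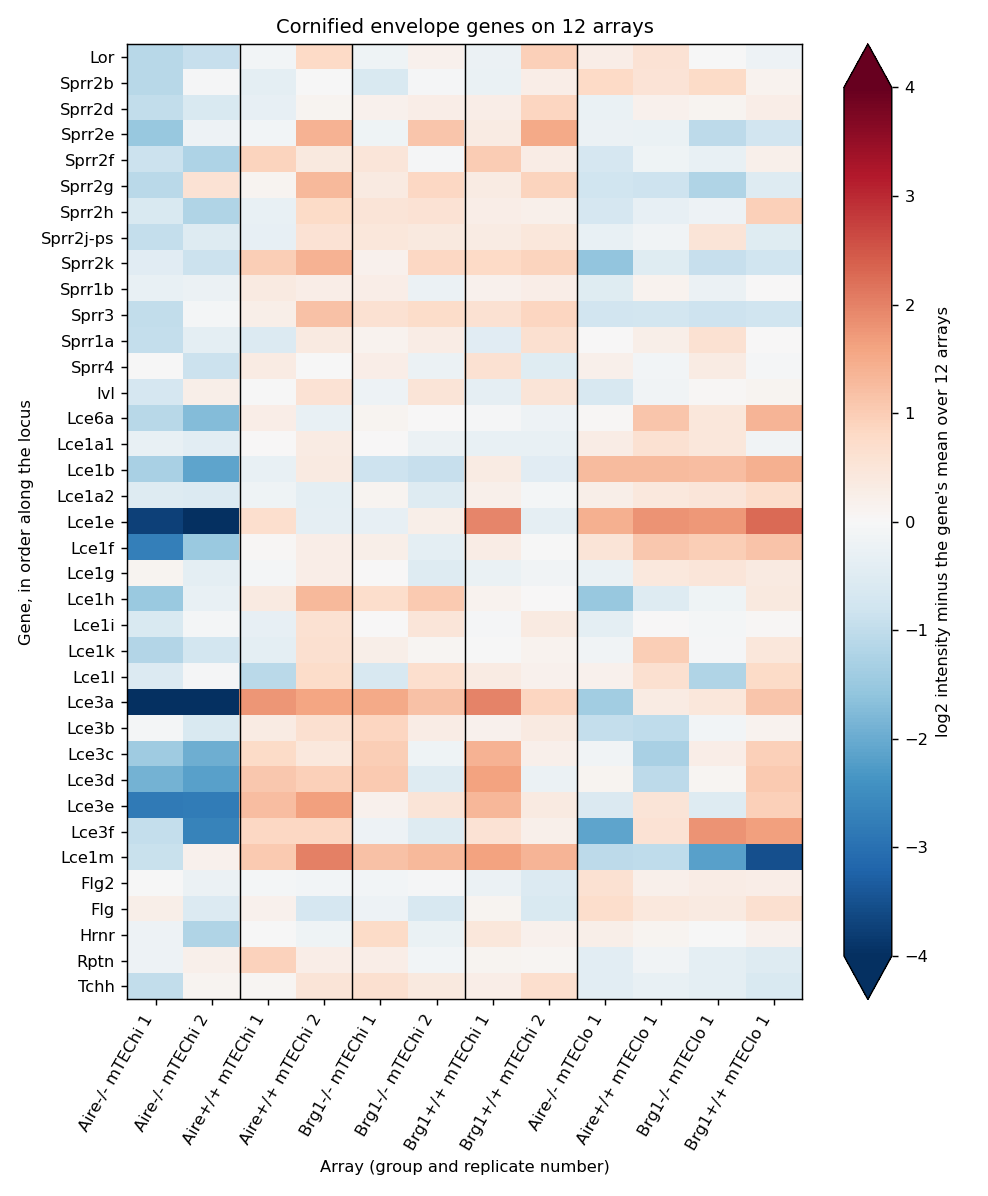
Log2 intensity of each of the 37 members on each of the 12 arrays, minus that gene's mean over the 12 arrays (colour scale, cut at 4 either way); rows follow the order along the locus and vertical lines separate the mTEChi groups and the mTEClo arrays. The deepest blue lies in the Aire-/- mTEChi columns at Lce3a, Lce1e and Lce3e, and at Lce1m on the Brg1+/+ mTEClo array.

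Loss of Aire in mTEChi went with lower signal across most of the locus, and the largest differences were those of Lce3a, Lce1e and Lce3e. Lce3a was 81.0-fold and Lce3e 19.1-fold lower in Aire-/- mTEChi, and both passed the test, which was limma with a Benjamini-Hochberg adjusted p under 0.05 over all 22154 genes. These were 2 of 37 members, while 0.772% of all genes passed in this direction; 0 members were higher, against 0.0226% of all genes. The log2 difference was below 0 for 36 of 37 members, with a median of -0.95, against a median of 0.06 over all genes. At least 2-fold lower values were found for 18 of 37 members and for 3.44% of all genes. Both Aire-/- arrays lay below both Aire+/+ arrays for 26 of 37 members, against 11.6% of all genes, and above them for 0 members, against 15.9%. With arrays of the same replicate number set against each other, 33 of 37 members were lower in Aire-/- mTEChi within both numbers, with a median of -0.98 for number 1 and -1.24 for number 2. The matching share over all genes was not counted, so this count has no background to be read against.

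Lce3 proteins are late envelope components whose human counterparts are known from psoriasis genetics. Lce3a read 4.51 and 4.00 in Aire-/- mTEChi, against 10.69 and 10.50 in Aire+/+ mTEChi. Its log2 difference was -6.34 (SE 0.400, 95% interval -7.27 to -5.41, n = 2 arrays each, limma adjusted p = 0.00103). Lce3e read 2.99 and 3.02 in Aire-/- mTEChi, against 7.06 and 7.46 in Aire+/+ mTEChi. For both genes the genotypes were far apart, and arrays of 1 group differed by at most 0.51 on the log2 scale. The difference for Lce3e was -4.26 (SE 0.364, 95% interval -5.10 to -3.41, n = 2 each, limma adjusted p = 0.00316). No background estimate was used, so whether the values near 3 and 4 stand above background is not known.

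Lce3c, one of the 4 members of the Lce family with the highest mean signal, read 8.06 and 7.51 in Aire-/- mTEChi, against 10.24 and 9.90 in Aire+/+ mTEChi. Its difference of -2.29 (SE 0.509, n = 2 each) did not pass the test (limma adjusted p = 0.158). The remaining Lce3 genes are given here although they lie outside the rule for named genes and were chosen after their values were seen. Lce3d read 6.06 and 5.76 in Aire-/- mTEChi, against 9.01 and 8.90 in Aire+/+ mTEChi (difference -3.05, adjusted p = 0.148). Lce3f read 7.12 and 5.42 in Aire-/- mTEChi, against 8.90 and 8.92 in Aire+/+ mTEChi (difference -2.64, adjusted p = 0.0932). The Aire-/- arrays were below the Aire+/+ arrays for each of these genes, and the Aire-/- arrays of Lce3f were themselves 1.70 apart. Lce3b had the smallest difference of the group, at 5.96 and 5.42 in Aire-/- mTEChi, against 6.37 and 6.66 in Aire+/+ mTEChi (difference -0.83, adjusted p = 0.724). The groups were thus apart for all 6 Lce3 genes, with a median difference of -2.84, and 5 of 6 were at least 2-fold lower.

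**Figure D2:**
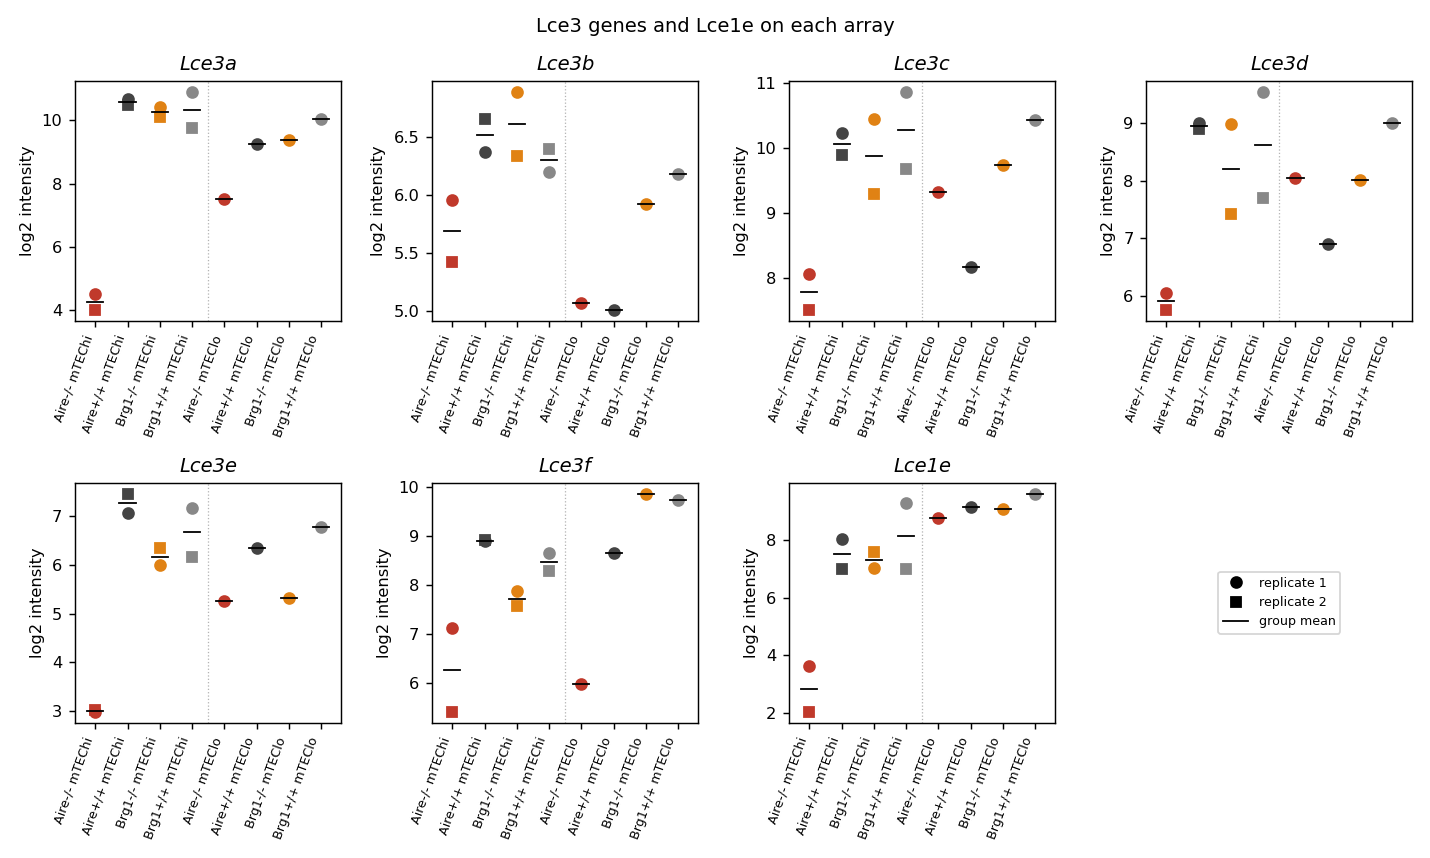
Log2 intensity of the 6 Lce3 genes and Lce1e on each array (circles replicate 1, squares replicate 2, bar the group mean; axes do not start at 0 and differ between panels), with mTEChi groups left of the dotted line and single mTEClo arrays right of it. Aire-/- mTEChi is the lowest mTEChi group in every panel; for Lce3a it reads 4.51 and 4.00, against 10.69 and 10.50 in Aire+/+ mTEChi.

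Of the 11 Lce1 genes none passed the test, all 11 had a log2 difference below 0, the median was -1.08, and the groups were apart for 8. Lce1a1, Lce1i, Lce1k and Lce1g were dim, with means over 12 arrays of 2.04, 2.16, 3.05 and 3.44. Whether they stand above background is not known. Lce1a1 and Lce1k were among those apart, and the median is the difference of Lce1k. Lce1f read 7.69 and 8.95 in Aire-/- mTEChi, against 10.48 and 10.71 in Aire+/+ mTEChi, a difference of -2.28 (SE 0.435, n = 2 each, limma adjusted p = 0.0928). Lce1m read 7.42 and 8.49 in Aire-/- mTEChi, against 9.36 and 10.32 in Aire+/+ mTEChi (difference -1.89, SE 0.437, adjusted p = 0.186), whereas its dimmer probe set gave 0.02. Neither pair of groups overlapped, and the Aire-/- arrays of each gene differed by more than 1 log2 unit. Lce1e, singled out after its values were seen, had the largest difference of the Lce1 group, with 3.62 and 2.04 in Aire-/- mTEChi, against 8.03 and 6.99 in Aire+/+ mTEChi. This difference of -4.68 was larger than that of Lce3e but its SE of 0.814 was wider, and it did not pass (limma adjusted p = 0.0631). It passed with arrays centred on their medians (adjusted p = 0.0441) and with genes above the median level only (0.0462). It did not pass with quantile normalization (0.0505) or with an offset of 16 (difference -3.06, 0.225). Whether its Aire-/- values stand above background is not known. At the other end of the group, Lce1l, Lce1a2 and Lce1g had differences of -0.13 to -0.25. Lce6a, the single member of its group, had a difference of -1.39 with groups apart (adjusted p = 0.158).

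None of the 12 Sprr genes passed either, although all 12 differences were below 0, with a median of -0.90, and the groups were apart for 8. Sprr2k had the smallest adjusted p of the family. It read 6.26 and 5.86 in Aire-/- mTEChi, against 7.68 and 8.11 in Aire+/+ mTEChi, with no overlap and a difference of -1.84 (SE 0.316, n = 2 each, limma adjusted p = 0.0602). Sprr2e read 7.42 and 8.73 in Aire-/- mTEChi, against 8.80 and 10.30 in Aire+/+ mTEChi (difference -1.48, SE 0.722, adjusted p = 1). The groups were apart by only 0.07, and the arrays within each group were more than 1 log2 unit apart, while the difference was -1.38 between arrays of replicate number 1 and -1.57 between those of number 2. Sprr2d read 8.74 and 9.11 in Aire-/- mTEChi, against 9.41 and 9.84 in Aire+/+ mTEChi. Sprr1a, a cross-bridging precursor, read 11 and 11.57 in Aire-/- mTEChi, against 11.40 and 12.32 in Aire+/+ mTEChi. Sprr2b read 8.30 and 9.34 in Aire-/- mTEChi, against 9.02 and 9.37 in Aire+/+ mTEChi. The groups overlapped for Sprr1a and Sprr2b and were apart for Sprr2d, and none of these 3 differences, between -0.38 and -0.70, passed the test.

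The 7 genes without close copies showed smaller differences, with a median of -0.59, groups apart for 3, and 0 past the test. Lor read 6.86 and 7.04 in Aire-/- mTEChi, against 7.84 and 8.77 in Aire+/+ mTEChi, with no overlap and a difference of -1.36 (SE 0.456, n = 2 each, limma adjusted p = 0.572). Ivl read 6.19 and 7.10 in Aire-/- mTEChi, against 6.86 and 7.44 in Aire+/+ mTEChi. The Ivl groups overlapped, and its interval ran from -1.58 to 0.57. Flg, the gene of filaggrin, read 6.20 and 5.40 in Aire-/- mTEChi, against 6.13 and 5.30 in Aire+/+ mTEChi, and was the single member with a difference above 0 (0.09, interval -0.91 to 1.08). Flg2 read 4.56 and 4.34 in Aire-/- mTEChi, against 4.50 and 4.48 in Aire+/+ mTEChi. Flg and Flg2 overlapped between groups, and the sign of either difference turned when 1 array was left out. Hrnr read 5.53 and 4.55 in Aire-/- mTEChi, against 5.73 and 5.56 in Aire+/+ mTEChi. Rptn read 6.99 and 7.38 in Aire-/- mTEChi, against 8.11 and 7.44 in Aire+/+ mTEChi. Tchh read 5.07 and 6.15 in Aire-/- mTEChi, against 6.13 and 6.57 in Aire+/+ mTEChi. The genotypes were apart by 0.03 for Hrnr and 0.06 for Rptn, Tchh overlapped, and the differences of these 3 genes lay between -0.59 and -0.74.

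The order of the group medians, -2.84 for Lce3, -1.08 for Lce1, -1.04 for Sprr2 and -0.59 for both the other Sprr genes and the fused S100-type genes, was not tested. Lce and Sprr2 genes are near-copies of each other, and probe sequences were not analysed, so how far signal of 1 copy reaches the probe set of another is not known. In RNA from bulk sorted cells, fewer cells expressing a gene and less RNA per cell cannot be told apart. No gene of the mTEC, cortical, thymocyte or other marker lists passed the test between Aire-/- and Aire+/+ mTEChi, and the means of the mTEC, thymocyte and other immune lists overlapped. The mean over 3 of 4 markers of basal keratinocytes or mTEClo was lower in Aire-/- mTEChi, at 5.92 to 6.01, against 6.14 to 6.56 in Aire+/+ mTEChi. Of these markers only Krt15 was lower, at 5.86 and 6.05, against 6.55 and 8.10. Itgb4 read 6.36 and 6.11 in Aire-/- mTEChi, against 6.11 and 6.06 in Aire+/+ mTEChi. Col17a1 read 5.82 and 5.60, against 5.76 and 5.52, and the median difference over the list was 0.07. Over 7 cortical markers the mean was higher in Aire-/- mTEChi, at 7.14 to 7.25, against 6.98 to 7.10 in Aire+/+ mTEChi, and so it was over 8 fibroblast and endothelial markers, at 6.02 to 6.10, against 5.76 to 5.89. The median difference was 0.295 over the cortical list and 0.04 over the fibroblast and endothelial list. The part of these shifts in the member differences was not tested.

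**Figure D3:**
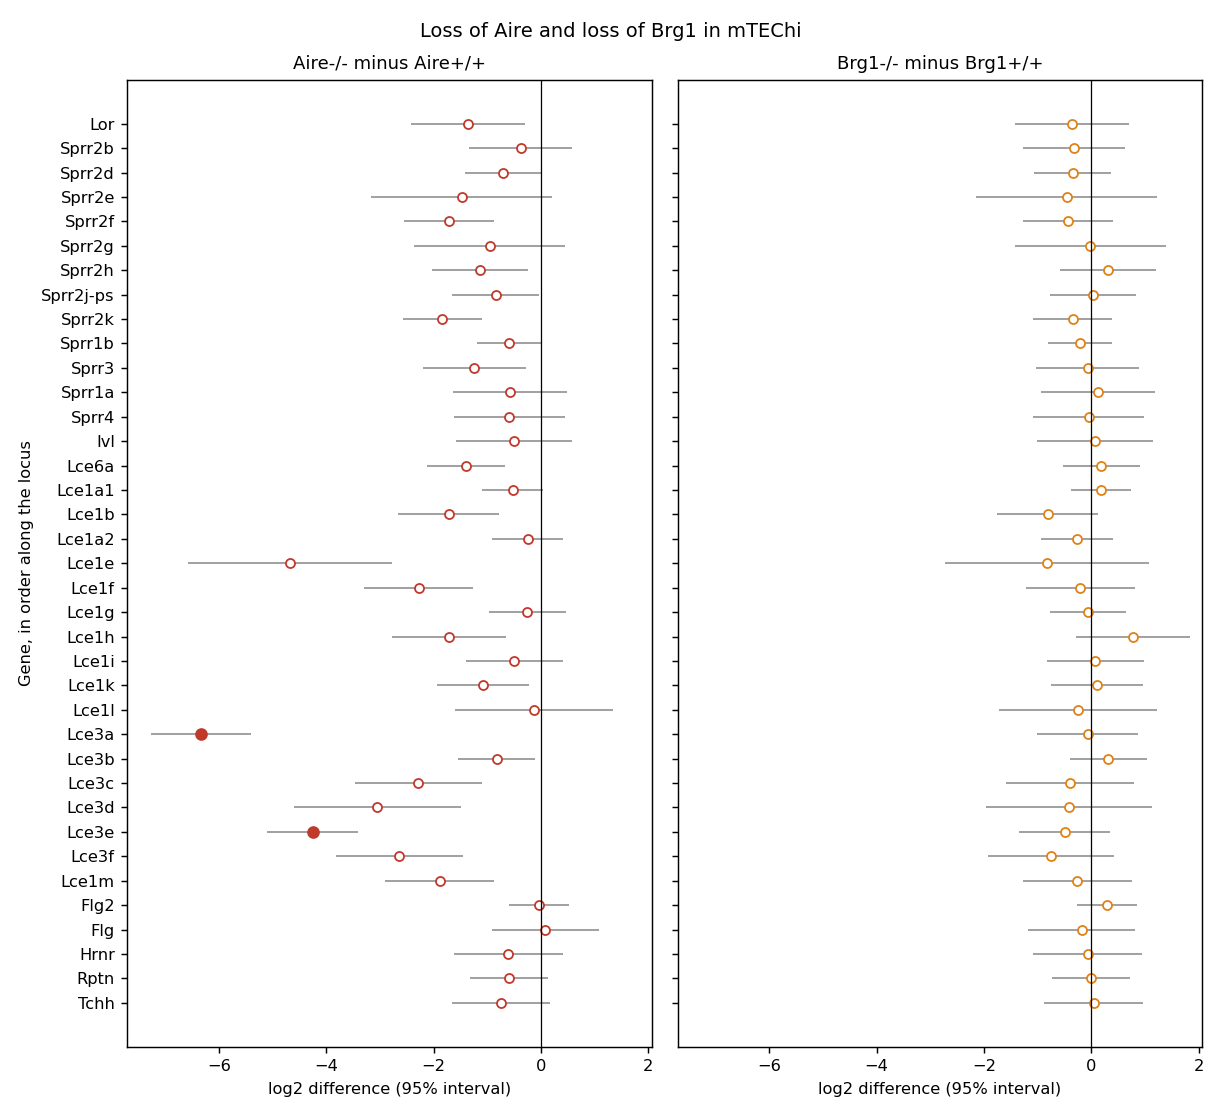
Log2 difference of each member in mTEChi with its 95% interval, for Aire-/- minus Aire+/+ (left) and Brg1-/- minus Brg1+/+ (right); filled points passed the limma test (adjusted p under 0.05) and rows follow the locus. Lce3a at -6.34 and Lce3e at -4.26 are the filled points on the left, and on the right every point lies between -0.83 and 0.78.

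Loss of Brg1 in mTEChi left the members without a detectable change. By limma 0 of 37 members passed in either direction, as did 0% of all genes, and 0 members had an unadjusted p under 0.05, against 301 of 22154 genes. Log2 differences ran from -0.83 to 0.78 with a median of -0.07, against 0 over all genes. No member differed by 2-fold, and of all genes 0.474% were lower by that much and 0.293% were higher. Shares this small, like that of the 301 genes, mean that 0 of 37 does not set the members apart from all genes. The groups were apart for 3 members with lower Brg1-/- values, against 9.62% of all genes, and for 5 with higher ones, against 9.77%, so both shares were near those of all genes. Lce3a read 10.43 and 10.10 in Brg1-/- mTEChi, against 10.90 and 9.77 in Brg1+/+ mTEChi. The Brg1-/- arrays lay inside the range of the Brg1+/+ arrays, and the difference was -0.07 (SE 0.400, 95% interval -1.0 to 0.86). Lce3e read 5.99 and 6.35 in Brg1-/- mTEChi, against 7.16 and 6.17 in Brg1+/+ mTEChi, again with overlap (difference -0.50, interval -1.34 to 0.35).

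Lce3c read 10.46 and 9.30 in Brg1-/- mTEChi, against 10.87 and 9.69 in Brg1+/+ mTEChi. Lce1f read 10.68 and 10.05 in Brg1-/- mTEChi, against 10.72 and 10.43 in Brg1+/+ mTEChi. In both genes replicate 1 read above replicate 2 in either genotype, and the groups overlapped. Lce1m read 9.48 and 9.60 in Brg1-/- mTEChi, against 9.93 and 9.67 in Brg1+/+ mTEChi, a gap of 0.07 between the groups. Sprr2k read 6.88 and 7.54 in Brg1-/- mTEChi, against 7.51 and 7.61 in Brg1+/+ mTEChi. Its interval for the difference, -1.09 to 0.39, shows the size of difference that these arrays could not resolve. Ivl read 6.66 and 7.37 in Brg1-/- mTEChi, against 6.49 and 7.39 in Brg1+/+ mTEChi. Lor read 7.79 and 8.13 in Brg1-/- mTEChi, against 7.73 and 8.91 in Brg1+/+ mTEChi. For Ivl, Lor and Sprr2k the groups overlapped, and Flg, Hrnr, Rptn and Tchh overlapped too, with differences of -0.18 to 0.05. Flg2, at 4.47 and 4.52 in Brg1-/- mTEChi, against 4.35 and 4.04 in Brg1+/+ mTEChi, was among the 5 members with higher Brg1-/- values.

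The effects of the knockouts were set against each other in 1 test, the Brg1 effect minus the Aire effect in mTEChi. Lce3a passed, with a difference of 6.27 (SE 0.565, 95% interval 4.95 to 7.59, limma adjusted p = 0.0135), and was 1 of 37 members; 0.135% of all genes passed in this direction. With any 1 of the Aire+/+ or Brg1-/- mTEChi arrays left out, 0 members passed, and Lce3a gave 6.11 to 6.44 (adjusted p = 0.0678 to 0.115). Lce3e, at 3.76 (SE 0.514), did not pass (adjusted p = 0.0644). The difference was above 0 for 34 of 37 members, with a median of 0.94 against -0.05 over all genes, and it exceeded 1 for all 6 Lce3 genes. Between Brg1+/+ and Aire+/+ mTEChi, 0 members and 0% of all genes passed by limma, and 0 members and 240 of all genes had an unadjusted p under 0.05. Member differences between these wild types ran from -0.74 to 0.66.

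Between wild-type mTEChi and mTEClo, members had differences of both signs. Lce1m was 13.5-fold higher and Sprr2k 3.15-fold higher in mTEChi, and these were the 2 of 37 members that passed; 1.93% of all genes passed as higher and 0.632% as lower, where 0 members did. The contrast averaged both lines and used 4 mTEChi and 2 mTEClo arrays; it shares the Aire+/+ and Brg1+/+ mTEChi arrays with the knockout comparisons, so it is not independent of them. A lone mTEClo array was taken to have the same spread as the mTEChi groups. Arrays were apart for 10 members with higher mTEChi values, against 11.4% of all genes, and for 7 with lower ones, against 17.7%.

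Lce1m read 9.36 and 10.32 on the Aire+/+ mTEChi arrays and 9.93 and 9.67 on those of Brg1+/+ mTEChi, against 7.31 in Aire+/+ mTEClo and 4.81 in Brg1+/+ mTEClo. All wild-type mTEChi arrays were above both mTEClo arrays, which were themselves 2.50 apart, and the difference was 3.76 (SE 0.379, limma adjusted p = 0.00484). Without the Brg1+/+ mTEClo array the difference was 2.53 and no longer passed (adjusted p = 0.116). The other Lce1m probe set, the dimmer one, read 5.92 and 6.25 on the Aire+/+ mTEChi arrays and 6.33 and 6.15 on those of Brg1+/+ mTEChi, against 6.34 in Aire+/+ mTEClo and 6.44 in Brg1+/+ mTEClo, and so did not show the rise. With the mean of both probe sets the difference was 1.77 (adjusted p = 0.0275). Sprr2k read 7.68 and 8.11 on the Aire+/+ mTEChi arrays and 7.51 and 7.61 on those of Brg1+/+ mTEChi, against 6.23 in Aire+/+ mTEClo and 5.91 in Brg1+/+ mTEClo. The stages did not overlap, and the difference was 1.66 (SE 0.274, adjusted p = 0.0250). With any 1 of these 6 arrays left out it was 1.55 to 1.77 and no longer passed (adjusted p = 0.0512 to 0.201).

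In the Lce1 group, Lce1m included, 8 of 11 differences were below 0, with a median of -0.64. Most of all genes also lay below 0, 13384 of 22154, with a median of -0.10, so this count does not set the group apart. Lce1f read 10.48, 10.71, 10.72 and 10.43 in wild-type mTEChi, against 11.52 and 11.59 in wild-type mTEClo, with no overlap (difference -0.97, adjusted p = 0.332). Lce1b and Lce6a, singled out after their values were seen, were also lower on every mTEChi array, with differences of -1.36 (adjusted p = 0.118) and -1.31 (adjusted p = 0.0550). Lce6a did pass as lower with arrays centred on their medians, with quantile normalization and with an offset of 16 before log2 (adjusted p = 0.0416, 0.0301 and 0.0310). In the Lce3 group the median was 0.82 and stages overlapped for 5 of 6 genes. Lce3a read 10.69, 10.50, 10.90 and 9.77 in wild-type mTEChi, against 9.24 and 10.04 in wild-type mTEClo (difference 0.83, adjusted p = 0.375). Its stages overlapped, as did those of Lce3e, at 7.06, 7.46, 7.16 and 6.17 in mTEChi, against 6.34 and 6.77 in mTEClo. Both mTEClo arrays carry replicate number 1. Between arrays of that number, mTEChi minus mTEClo was 1.45 in Aire+/+ and 0.86 in Brg1+/+ cells for Lce3a. For Lce3e it was 0.72 and 0.39. Among Sprr genes, with a median of 0.38, Sprr3 had the next largest difference after Sprr2k, 1.48 (adjusted p = 0.0964), a gene also chosen after its values were seen.

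Sprr1a, Ivl and Lor overlapped between the stages. Sprr1a read 11.40, 12.32, 11.50 and 12.58 in wild-type mTEChi, against 12.19 and 11.96 in wild-type mTEClo. Ivl read 6.86, 7.44, 6.49 and 7.39 in wild-type mTEChi, against 6.71 and 6.98 in wild-type mTEClo. Lor read 7.84, 8.77, 7.73 and 8.91 in wild-type mTEChi, against 8.54 and 7.77 in wild-type mTEClo. In each of these genes the mTEClo arrays lay within the spread of the mTEChi arrays, where replicate 2 read higher than replicate 1 in every group. Between arrays of number 1, mTEChi minus mTEClo for Sprr1a was -0.79 in Aire+/+ and -0.46 in Brg1+/+ cells. It was 0.15 and -0.49 for Ivl, and -0.70 and -0.04 for Lor. All mTEClo arrays carry replicate number 1; among arrays of that number the median member difference was 0.03 in Aire+/+ and -0.04 in Brg1+/+ cells. The means of the mTEC and thymocyte markers were higher in wild-type mTEChi than in wild-type mTEClo, and the fibroblast and endothelial mean was lower, at 5.59 to 5.89 in mTEChi, against 6.25 and 6.14 in mTEClo. Their part in these differences was not tested.

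**Figure D4:**
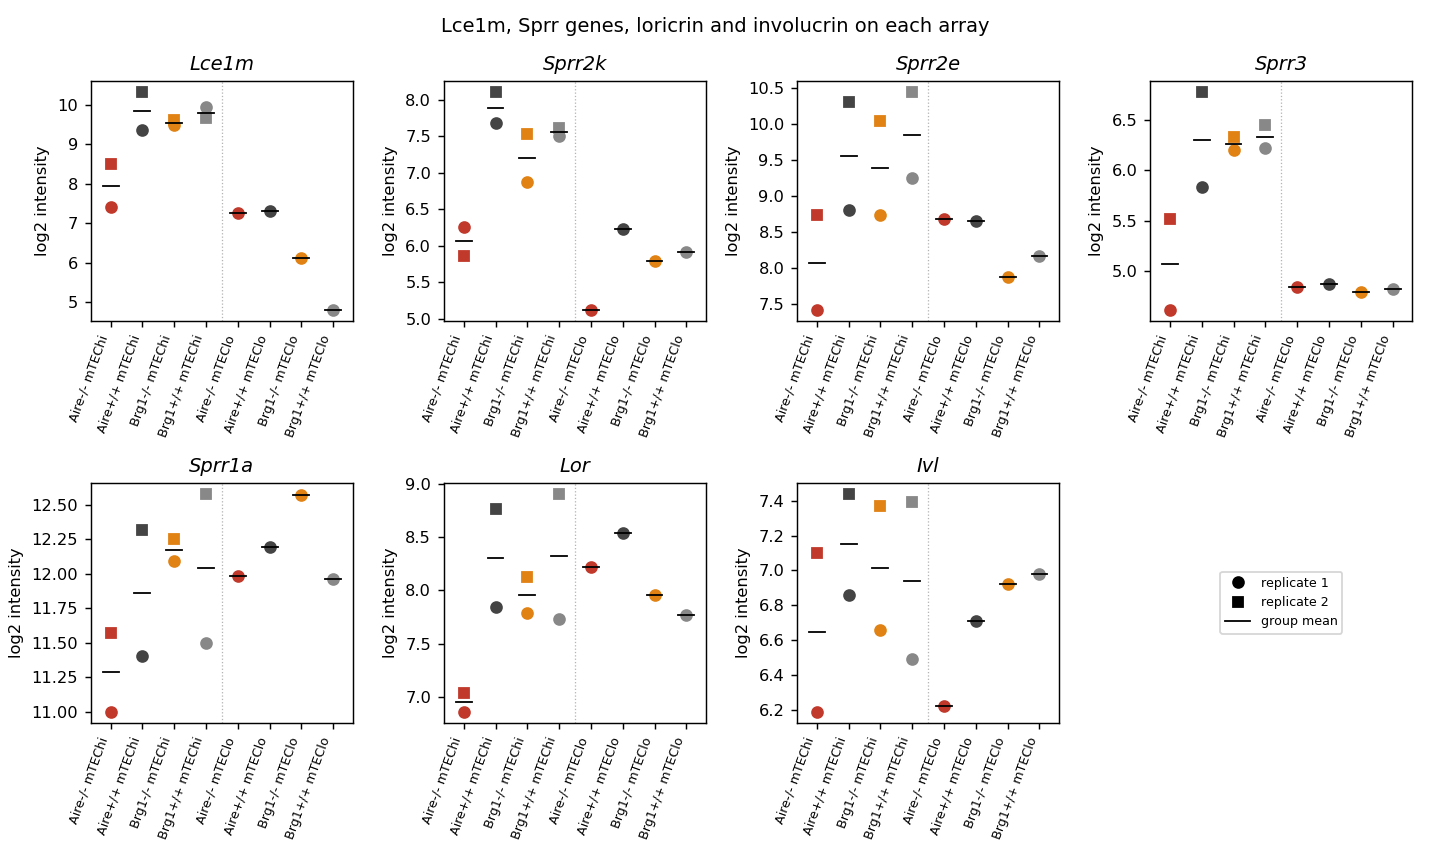
Log2 intensity of Lce1m, 4 Sprr genes, Lor and Ivl on each array (circles replicate 1, squares replicate 2, bar the group mean; axes do not start at 0 and differ between panels), with mTEChi groups left of the dotted line and single mTEClo arrays right of it. Lce1m reads 9.36 to 10.32 in wild-type mTEChi, against 7.31 and 4.81 in wild-type mTEClo, while Sprr1a, Lor and Ivl overlap between the stages.

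In Aire-/- cells Lce3a was 9.61-fold lower in mTEChi than in mTEClo. It passed the test, with 4.51 and 4.00 in mTEChi, against 7.52 in mTEClo (difference -3.27, SE 0.490, limma adjusted p = 0.0481). It was 1 of 37 members, while 0.0858% of all genes passed as lower and 0.384% as higher. With either Aire-/- mTEChi array left out, 0 members passed, and Lce3a gave -3.52 and -3.01 (adjusted p = 0.150 and 0.237). Lce3e read 2.99 and 3.02 in Aire-/- mTEChi, against 5.26 in Aire-/- mTEClo, and Lce1e read 3.62 and 2.04, against 8.78. Neither passed (adjusted p = 0.116 and 0.0682). Both mTEChi arrays were below the lone mTEClo array for these genes, but so they were for 8744 of 22154 genes. Of 37 members, 22 were below in this way and 6 above, against 5677 of all genes above. Lce1m, at 7.42 and 8.49 in Aire-/- mTEChi and 7.27 in Aire-/- mTEClo, had a difference of 0.69 (adjusted p = 0.999). Within the Aire line, the stage difference of Lce1m in Aire-/- cells minus that in Aire+/+ cells was -1.85 (adjusted p = 1).

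In Brg1-/- cells Lce1m passed as higher, with 9.48 and 9.60 in Brg1-/- mTEChi, against 6.13 in Brg1-/- mTEClo (difference 3.41, SE 0.535, limma adjusted p = 0.0498). It was 1 of 37 members, and 0.542% of all genes passed in this direction and 0.0406% as lower. With either Brg1-/- mTEChi array left out the difference was 3.47 or 3.35 and did not pass (adjusted p = 0.236 and 0.233), and with the mean of both Lce1m probe sets it was 1.57 (adjusted p = 0.307). Lce3a read 10.43 and 10.10 in Brg1-/- mTEChi, against 9.39 in Brg1-/- mTEClo (difference 0.88, adjusted p = 0.951).

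**Figure D5:**
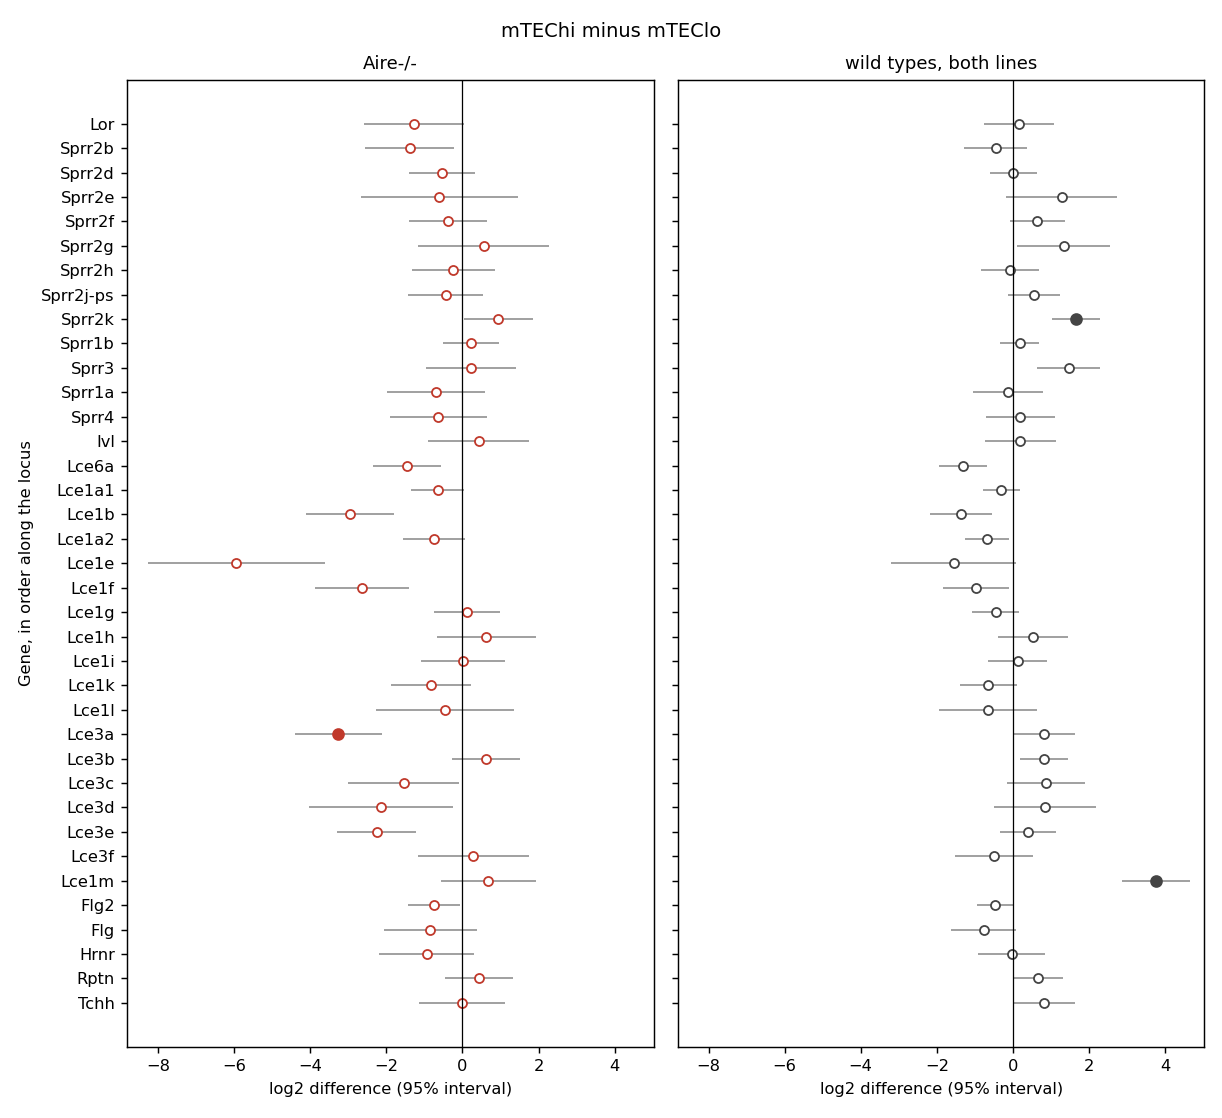
Log2 difference of each member between mTEChi and mTEClo with its 95% interval, in Aire-/- cells (left) and averaged over the wild types of both lines (right); filled points passed the limma test (adjusted p under 0.05) and rows follow the locus. Lce3a at -3.27 is filled on the left, and Lce1m at 3.76 and Sprr2k at 1.66 are filled on the right.

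Within mTEClo each knockout rests on 1 array against 1 array, so there is no replicate check, and no p-value is given. In the Aire-/- mTEClo array 6 members were at least 2-fold lower than in the Aire+/+ mTEClo array, against 1.57% of all genes, and 2 were at least 2-fold higher, against 0.587%. The 6 lower members were Lce3f, Lce3a, Lce1k, Sprr2k, Lce3e and Lce6a. Lce3f read 5.98 in Aire-/- mTEClo and 8.65 in Aire+/+ mTEClo, a difference of -2.67. Lce3a read 7.52 in Aire-/- mTEClo and 9.24 in Aire+/+ mTEClo, a difference of -1.72. Lce3c and Lce3d, the 2 higher members, both differed by 1.15, with Lce3c at 9.33 in Aire-/- mTEClo and 8.18 in Aire+/+ mTEClo. The Lce3 genes, all lower in Aire-/- mTEChi, were thus split in mTEClo, 3 above 0 and 3 below. The wild-type mTEClo arrays were themselves 2.25 apart for Lce3c and 2.10 apart for Lce3d, with the Aire-/- mTEClo array between them and the Aire+/+ array at the low end, so the sign of both rests on that array. A test of the Aire effect in mTEChi minus that in mTEClo called 0 members and 0% of all genes by limma; 7 members and 547 of all genes had an unadjusted p under 0.05. Lce3a gave -4.62 in it (SE 0.692, adjusted p = 0.216).

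In the Brg1-/- mTEClo array 3 members were at least 2-fold lower than in the Brg1+/+ mTEClo array, against 1.27% of all genes, and 2 were at least 2-fold higher, against 1.47%. The lower ones were Lce1l (-1.98), Lce3e (-1.45) and Sprr2h (-1.17). The higher ones were Lce1m, at 6.13 in Brg1-/- mTEClo and 4.81 in Brg1+/+ mTEClo, and the pseudogene Sprr2j-ps (1.00). For Lce1m the Brg1-/- mTEClo array lay between the wild-type mTEClo arrays. So it did for Sprr2h, at 6.12, against 6 in Aire+/+ and 7.29 in Brg1+/+ mTEClo. The median over the members was -0.18 in this comparison, against -0.01 over all genes. In the Aire comparison it was -0.32, against 0.04 over all genes.

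Other genes of cornification were taken from a list of 42, of which 41 were measured. In Aire-/- against Aire+/+ mTEChi 0 of 41 passed, with a median difference of -0.09, against 0.06 over all genes. Of all genes 0.772% passed as lower and 0.0226% as higher, so 0 of 41 does not set the list apart from them. The median was -0.24 over 17 further envelope precursors and partners, 0.01 over 13 cross-linking and processing enzymes, among them the transglutaminases Tgm1, Tgm3 and Tgm5, and -0.02 over 11 transcription factors of epidermal differentiation. The smallest adjusted p belonged to S100a9, a calcium-binding protein encoded in the same complex, which read 9.03 and 8.58 in Aire-/- mTEChi, against 11.40 and 10.76 in Aire+/+ mTEChi (difference -2.28, limma adjusted p = 0.0690). Next was Klk5, a protease of skin shedding, at 4.55 and 4.53 in Aire-/- mTEChi, against 6.00 and 6.86 in Aire+/+ mTEChi (difference -1.89, adjusted p = 0.108). Both genes were apart between genotypes without passing. After loss of Brg1 0 of 41 passed, as did 0% of all genes. In the Brg1 effect minus the Aire effect 0 of 41 passed, against 0.135% of all genes as higher and 0% as lower. Between the wild-type stages 2 of 41 passed, S100a14 and the calmodulin-like gene Calm5, both higher in mTEChi. Of all genes 1.93% passed as higher and 0.632% as lower. The difference was 2.13 for S100a14 (SE 0.214, adjusted p = 0.00484), and Calm5 differed by 2.29 (SE 0.332, adjusted p = 0.0150). S100a14 read 11.58 and 11.65 in Aire-/- mTEChi, against 10.61 and 10.63 in Aire+/+ mTEChi, a difference of 0.995 that did not pass (adjusted p = 0.235).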

How the data were processed

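RNA of sorted mTECs was measured on 12 biotin-labelled Affymetrix arrays. The deposited table gives 1 linear intensity per probe set and array, which the authors had normalized. RMA is named in the submitters' processing notes, next to the Transcriptome Analysis Console and the Affymetrix Expression Console, without versions; no source used here says if all arrays were normalized as 1 set. Each deposited intensity is 2 raised to a number with 2 decimals, so log2 values carry a step of 0.01. No detection p was used.

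The log2 of each intensity was taken, without pseudocount or rescaling. Of 33732 probe sets, 23491 had 1 gene symbol in the platform annotation, 1811 had several and 8430 had none there. The brightest probe set per gene by its mean over 12 arrays was kept, which left 22154 genes. Samples were grouped by genotype, fraction and replicate number in the labels. limma 3.58.1 in R 4.3.3 (lmFit, eBayes) fitted 8 group means to all arrays, with 4 residual and 3.46 prior degrees of freedom, two-sided, with Benjamini-Hochberg adjustment over all genes and a threshold of 0.05. SE is limma's moderated standard error. Lone mTEClo arrays were taken to have the spread of the mTEChi groups. Only 2 arrays a group limit the precision. The labels do not say that equal replicate numbers mark shared animals or days, so the fit has no block. Alternatives were array centring, quantile normalization, an offset of 16, a filter on dim genes, the mean of probe sets, fewer arrays in the fit, eBayes with trend and robust, replicate blocks and leaving out arrays. Steps were tested on simulated arrays.

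The members and gene lists were chosen with earlier results of these data known. Named on every array are the 7 genes without close copies, every member past a test, and the 4 members of the Lce and of the Sprr family with the highest mean; others are named where said.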

Additional observations from a re-analysis of the deposited data

Results flagged for a closer look

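Lce3a is given here because the effects of the knockouts on it differed from each other in a direct test. The Brg1 effect minus the Aire effect in mTEChi was 6.27 (SE 0.565, limma adjusted p = 0.0135). Lce3a read 4.51 and 4.00 in Aire-/- mTEChi, against 10.69 and 10.50 in Aire+/+ mTEChi. It read 10.43 and 10.10 in Brg1-/- mTEChi, against 10.90 and 9.77 in Brg1+/+ mTEChi. Groups had at most 2 arrays, so outlying samples were not tested for.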

How the results depend on the processing

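The fall of Lce3a and of Lce3e in Aire-/- mTEChi passed under every alternative run. Of 37 members, 2 passed in that comparison, and 4 did so with only the arrays of the line and 4 of the 27 members tested with genes above the median level only; with 1 array left out 2 to 3 passed. For the Brg1 effect minus the Aire effect 1 passed, and 2 of 27 did so with genes above the median level only; with 1 array left out 0 to 2 passed, with 0 when any Aire+/+ or Brg1-/- mTEChi array was missing. Between the wild-type stages 2 passed, 3 with centring, quantile normalization or the offset, where Lce6a was added as lower, and with 1 array left out 0 to 1. Between the Aire-/- stages 1 passed, against 2 with quantile normalization, 3 of 27 with genes above the median level only, and 0 with the offset, with only the arrays of the line, with trend and robust moderation or with either mTEChi array left out (0 to 0). Between the Brg1-/- stages 1 passed, and 0 under centring, quantile normalization, the offset, the mean of probe sets, only the arrays of the line, trend and robust moderation, or without either mTEChi array (0 to 0). In mTEClo, 8 members were past 2-fold without Aire and 5 without Brg1, against 4 and 3 with the offset. Brg1 loss, and Brg1+/+ against Aire+/+ mTEChi, gave 0 members under every alternative run.

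Same-numbered arrays of different mTEChi groups deviated together from their group means, with r of 0.552 to 0.657 over 22154 genes in 6 pairs of groups; with 2 numbers per group this is a hint from the data and not from the design. With the replicate block within each line (2 residual degrees of freedom) or common to both lines (3), more members and more of all genes passed in 6 comparisons. For Aire loss 14 and 16 members passed, all lower, and 531 and 569 genes in all, against 176 without the block; both fits called Lce1e, Lce1f, Lce1h, Lce1m, Lce6a, Sprr2e, Sprr2f, Sprr2k, Sprr3 and the Lce3 genes except Lce3b. For the Brg1 effect minus the Aire effect 5 and 3 members and 201 and 228 genes passed, against 30 genes without it. Between wild-type stages 9 and 7 members and 1534 and 1757 genes passed, against 567, with Lce6a as the 1 lower member. Both fits called Lce1m, Lce3a, Lce3c, Sprr2f, Sprr2k and Sprr3 as higher in mTEChi. The counts were 7 and 9 members and 505 and 753 genes, against 104, between Aire-/- stages; 3 and 2 members and 615 and 670 genes, against 129, between Brg1-/- stages; and 3 and 2 members and 63 and 66 genes, against 0, for the Aire effect in mTEChi minus that in mTEClo. The block made no call for Brg1 loss or between the wild-type mTEChi groups.

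Signs turned only where an array was left out. In the Aire comparison Flg ranged between -0.33 and 0.5, Flg2 between -0.15 and 0.07 and Sprr2b between -0.90 and 0.15, with the sign turned without 1 of the knockout arrays or, for Flg, also without Aire+/+ mTEChi replicate 2. In the Brg1 comparison the ranges were -0.64 to 0.50 for Lce3a, -0.99 to 0 for Lce3e, -0.99 to 0.19 for Lce3c, -1.34 to 0.51 for Lce3d, -1.98 to 0.33 for Lce1e and -0.53 to 0.11 for Lce1f, and the upper end came without Brg1+/+ mTEChi replicate 1, or for Lce1f without Brg1-/- mTEChi replicate 2. Between wild-type stages Lce3e ranged between -0.11 and 0.92, Lce3c between -0.15 and 1.89 and Lce3d between -0.38 and 2.06, with the low end without the Aire+/+ mTEClo array, and Lce3f ranged between -1.26 and 0.26, with the high end without the Brg1+/+ mTEClo array. None of these differences passed the test in any of those fits. The causes were not tested.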

Other observations

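A further 7 probe sets list several symbols that include an Lce or Sprr gene, so none of them was assigned to a gene. One that lists a pair of Lce1 symbols read 6.98 and 4.05 in Aire-/- mTEChi, against 9.4 and 10.30 in Aire+/+ mTEChi, a log2 difference of -4.33, and its Brg1 difference in mTEChi was -0.46. The other 6 differed by -0.82 to -0.06 after loss of Aire, and 2 of them held identical values on every array.

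The dimmer Lce1m probe set read 5.84 and 6.37 in Aire-/- mTEChi, against 5.92 and 6.25 in Aire+/+ mTEChi, a difference of 0.02, whereas the brighter one gave -1.89.

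In all 4 mTEChi groups 9 of 37 members read higher on replicate 2 and 9 read higher on replicate 1, against 4052 and 7101 of 22154 genes. Such a split by replicate number was thus common among all genes and not particular to the members. Sprr2e was higher on replicate 2 by 1.31 in Aire-/-, 1.5 in Aire+/+, 1.30 in Brg1-/- and 1.19 in Brg1+/+ mTEChi. Lce3a, Lce3c and Lce3d were among those higher on replicate 1 in each group. What the numbers stand for is not given in the labels.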
